A study of Ovis aries with 12 samples.

Results

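The genes described here prepare peptides for display by major histocompatibility complex (MHC) class I molecules. The set was given by name and had 10 genes: B2M, TAP1, TAP2, TAPBP, PSMB8, PSMB9, PSMB10, PSME1, PSME2 and NLRC5. All probe sets that GEO's annotation of the bovine array assigns to 1 of these symbols alone were taken, which gave 11 probe sets for 9 of the 10 genes, out of 24016 probe sets and 9155 named genes in all. B2M had 3 probe sets, and TAP1, TAP2, TAPBP, PSMB8, PSMB9, PSMB10, PSME1 and PSME2 had 1 each. NLRC5 was not matched to a probe set and is not analysed here. The samples were 12 corpora lutea of sheep, the progesterone-secreting glands of the ovary, from female animals, with 1 gland per ewe and 1 Affymetrix bovine array per gland. There were 4 groups of 3: day 12 pregnant, day 12 non-pregnant, day 14 pregnant and day 14 non-pregnant. A fertile ram had mated the pregnant ewes, while the non-pregnant ewes were left unmated and their heat was found with a vasectomized ram. No strain, age, genotype or hormone treatment was given for any group in the sources used here, nor how pregnancy itself was checked. The groups follow the source label, with which the sample titles conflict for 9 arrays.

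Class I molecules carry short peptides from inside the cell to its surface, where cytotoxic T cells read them and natural killer cells sense their absence. The peptides are cut by the proteasome. After exposure to interferon, cells build an immunoproteasome, in which PSMB8, PSMB9 and PSMB10 take the places of the constitutive catalytic subunits PSMB5, PSMB6 and PSMB7, and in which PSME1 and PSME2 form the PA28 cap that opens the core. TAP1 and TAP2 form the pump that moves peptides into the endoplasmic reticulum, TAPBP (tapasin) bridges that pump to the waiting class I heavy chain, and B2M is the invariant light chain of the finished molecule. In ruminants the conceptus secretes interferon tau around the time at which the corpus luteum of a non-pregnant ewe would regress.

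Values are log2 expression values, so a difference of 1 is a doubling of signal. Sheep RNA met bovine probes, and levels of different genes are therefore not compared. Except for 1 B2M probe set at the 42.3 percentile of all probe sets by mean level, the members lay between the 78.3 percentile (TAP1) and the 98.7 percentile (B2M). Differences are given ± standard error from a limma model with a mean per group and a term for array batch, and adjusted p-values are Benjamini-Hochberg values over all 24016 probe sets. Batch is what the description labels call the array: a gene array for 4 samples (batch A) and a genome array for 8 (batch B). The gene array was used for replicate 3 of both pregnant groups and for replicates 2 and 3 of the day 14 non-pregnant group. The day 14 non-pregnant arrays stood apart on the first principal component of all probe sets, at 18.1 to 40.4 against -13.0 to -7.00 for the other 9, so that values with and without 2 of them are given where a result turns on them. The 3′ minus 5′ difference of the actin and GAPDH control probe sets, a reading of RNA quality, was higher in pregnant ewes, at 1.57 to 1.60 against 1.42 to 1.47 on day 12 and 1.44 to 1.60 against 1.29 to 1.43 on day 14.

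PSMB9 and PSMB10, catalytic subunits of the immunoproteasome, had the largest average differences of the set between pregnant and non-pregnant ewes. PSMB9 was 1.41-fold higher in pregnant ewes on the average of both days (log2 difference 0.49 ± 0.093, 95% interval 0.29 to 0.70, limma adjusted p = 0.0349), and it was the member that passed the threshold of 0.05. In glands, fewer cells that express a gene and less of its RNA per cell cannot be told apart, here and in all comparisons below. On day 12 PSMB9 was at 9.96, 9.96 and 9.62 in the pregnant ewes and at 9.60, 9.63 and 9.31 in the non-pregnant ewes. On day 14 it was at 9.89, 10.05 and 9.87 in the pregnant and at 9.70, 9.20 and 8.94 in the non-pregnant ewes. The day 14 groups did not overlap, while on day 12 the lowest pregnant ewe lay just under the highest non-pregnant ewe. Taken singly, the days gave 0.45 ± 0.14 on day 12 (adjusted p = 0.513) and 0.54 ± 0.14 on day 14 (adjusted p = 0.0832), and neither passed. The pregnancy difference did not pass a test for a change between the days (0.092 ± 0.20, adjusted p = 0.933, 95% interval -0.35 to 0.53).

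The PSMB9 call was close to the threshold. It held without 3 of the 12 arrays (day 14 non-pregnant replicates 1 and 2 and day 14 pregnant replicate 1), and without each of the other 9 the difference was 0.43 to 0.52 with adjusted p between 0.0567 and 0.0997. It did not pass without the batch term (adjusted p = 0.0838), with batch as a random block (adjusted p = 0.0896), with the 3′ minus 5′ value as a covariate (0.62 ± 0.17, adjusted p = 0.549), or without both batch A glands of the day 14 non-pregnant group (0.36 ± 0.10, adjusted p = 0.183). Within batch B the average difference was 0.36, and batch A held no day 12 non-pregnant gland.

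**Figure D1:**
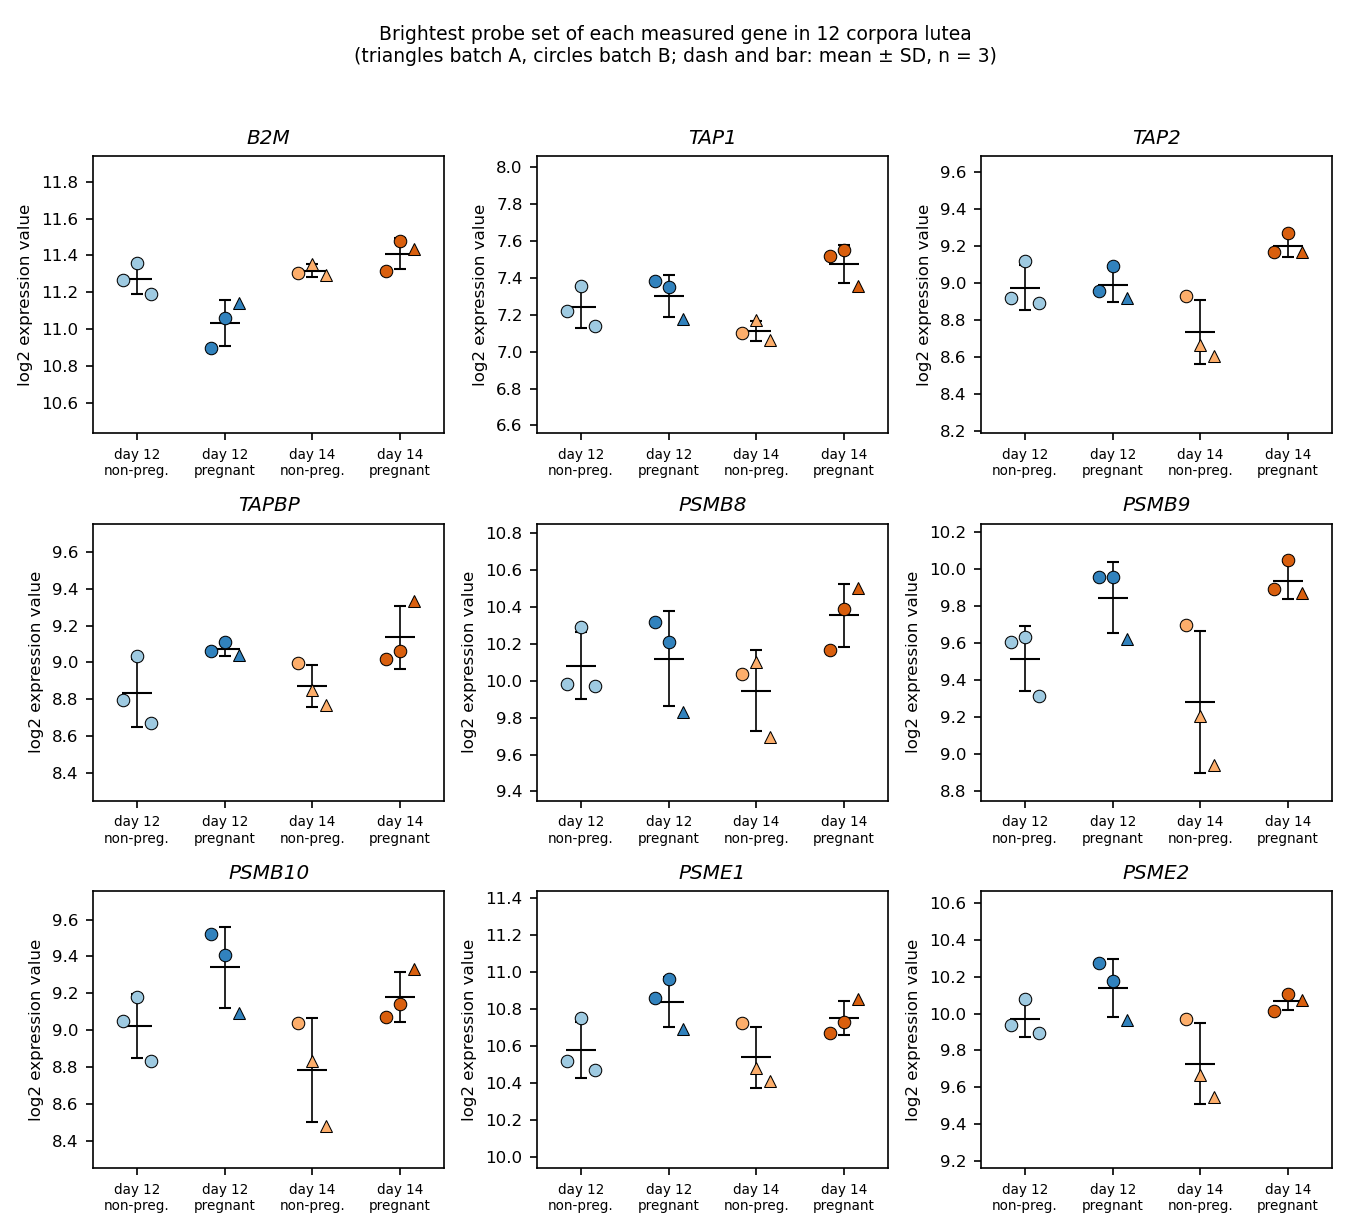
Each panel plots the log2 expression value (vertical axis, 1.5 log2 units in every panel) of 1 gene's brightest probe set in the 4 groups of 3 ewes, with triangles for batch A, circles for batch B and mean ± SD beside them. The group means of PSMB9, TAP1 and TAP2 are highest in the day 14 pregnant and lowest in the day 14 non-pregnant group, whereas that of B2M is lowest in the day 12 pregnant group.

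PSMB10 had the next largest average difference, 0.36 ± 0.11 (adjusted p = 0.149). It was at 9.52, 9.41 and 9.10 in day 12 pregnant ewes and at 9.05, 9.18 and 8.84 in day 12 non-pregnant ewes. On day 14 the pregnant ewes were at 9.07, 9.14 and 9.33 and the non-pregnant at 9.04, 8.83 and 8.48. The day 14 groups stood apart by a narrow margin, because non-pregnant replicate 1 was nearly as high as the lowest pregnant ewe, and the day 12 groups overlapped. Its differences were 0.38 ± 0.16 on day 12 (adjusted p = 0.612) and 0.34 ± 0.16 on day 14 (adjusted p = 0.332). Without day 14 pregnant replicate 3 the day 14 difference of PSMB10 was 0.069.

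PSMB8, the remaining catalytic subunit, differed little on day 12. Its values were 10.32, 10.21 and 9.83 in the pregnant ewes of day 12 against 9.98, 10.29 and 9.97 in the non-pregnant, so those groups overlapped fully. On day 14 they were 10.17, 10.39 and 10.50 against 10.04, 10.10 and 9.70, with no overlap. The differences were 0.077 ± 0.16 on day 12 (adjusted p = 0.947) and 0.37 ± 0.16 on day 14 (adjusted p = 0.306), and the change between the days was 0.29 ± 0.24 (adjusted p = 0.749). Without day 14 pregnant replicate 3 the day 14 difference of PSMB8 was 0.14.

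Each of these subunits was then set against the constitutive subunit whose place it takes, as a log2 difference within each array. The level of such a difference has no meaning across 2 probe sets, but its change between groups shows whether the 2 genes moved by unequal amounts. For PSMB9 minus PSMB6 the day 12 pregnant ewes were at -0.63, -0.83 and -0.80, and the day 12 non-pregnant at -0.95, -1.07 and -1.41. On day 14 the pregnant were at -0.48, -0.42 and -0.59 and the non-pregnant at -0.98, -1.55 and -1.56. All pregnant ewes lay above all non-pregnant ewes of the same day, and the mean difference within days was 0.63. A two-sided exact permutation test of pregnancy labels within days, over 400 arrangements, gave p = 0.005, the smallest it can give (adjusted p = 0.0075 over the 3 pairs).

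PSMB10 minus PSMB7 also separated the ewes on both days. The pregnant ewes were at -0.74, -1.10 and -1.06 on day 12 and at -1.01, -0.88 and -0.94 on day 14, against -1.13, -1.12 and -1.38 and then -1.19, -1.20 and -1.54 in the non-pregnant. The mean difference within days was 0.31 (exact permutation p = 0.005, adjusted p = 0.0075 over the 3 pairs). PSMB8 minus PSMB5 was not separated on day 12 (-0.086) but was on day 14 (0.43), for a mean of 0.17 (exact permutation p = 0.195, adjusted p = 0.195). That day 14 difference of PSMB8 minus PSMB5 alone could not fall below an exact p of 0.10 with 3 ewes a group and was not tested singly. The test has no batch term. Within batch B the PSMB9 pair differed by 0.41 on day 12 and 0.53 on day 14 and the PSMB10 pair by 0.29 and 0.25, and within batch A on day 14 the values were 0.96 and 0.43. In leave-outs of each array in turn both pairs stayed past the threshold, with adjusted p of at most 0.03.

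The constitutive subunits themselves did not pass in any comparison. On day 14 PSMB5 was at -0.037 ± 0.12 (adjusted p = 0.926), PSMB6 at -0.24 ± 0.11 (adjusted p = 0.344) and PSMB7 at 0.0026 ± 0.12 (adjusted p = 0.995) in pregnant against non-pregnant ewes. PSMB6 was thus lower where PSMB9 was higher, and the within-array difference of that pair holds both.

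**Figure D2:**
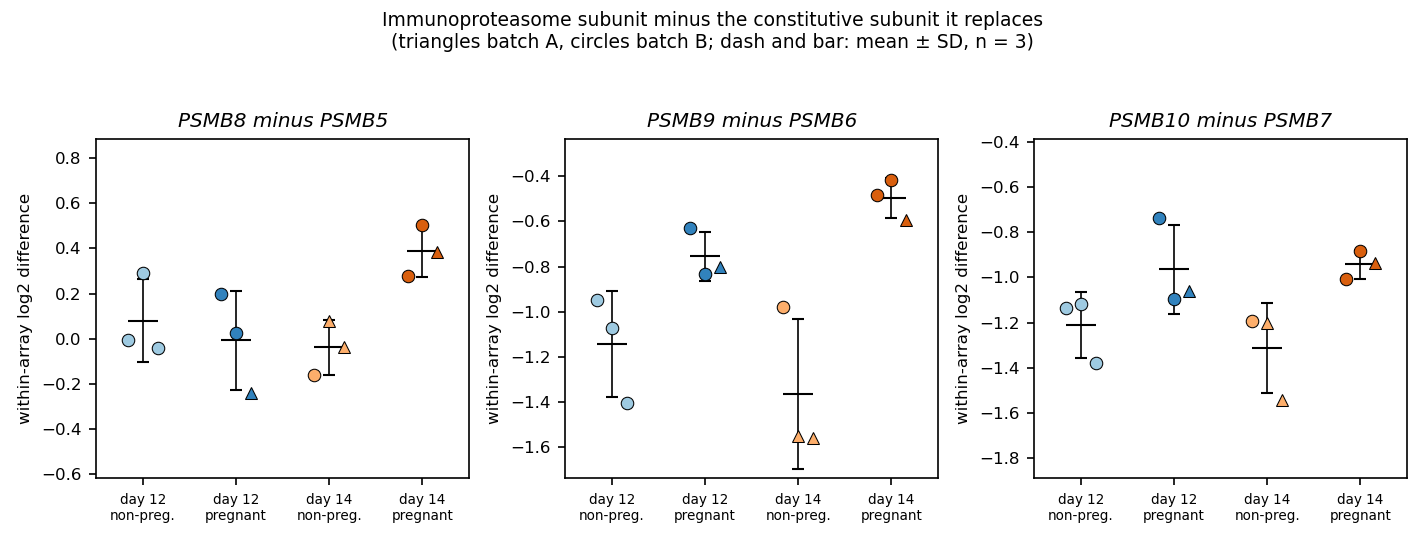
Each panel plots, for 1 pair of genes, the within-array log2 difference of the immunoproteasome subunit minus its constitutive counterpart (vertical axis) in the 4 groups of 3 ewes, with triangles for batch A, circles for batch B and mean ± SD. For PSMB9 minus PSMB6 and PSMB10 minus PSMB7 the pregnant ewes lie above the non-pregnant ewes on both days, and for PSMB8 minus PSMB5 on day 14 alone.

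The PA28 cap showed small differences of like size on both days. PSME2 was at 10.28, 10.18 and 9.96 in day 12 pregnant and at 9.94, 10.08 and 9.90 in day 12 non-pregnant ewes. On day 14 it was at 10.02, 10.11 and 10.08 in the pregnant and at 9.97, 9.67 and 9.55 in the non-pregnant. The groups overlapped on day 12 and not on day 14, and the differences were 0.23 ± 0.11 (adjusted p = 0.646) and 0.27 ± 0.11 (adjusted p = 0.252). PSME1 ranged from 10.4 to 11.0 over the 12 glands and overlapped on both days, with 0.30 ± 0.12 on day 12 (adjusted p = 0.598) and 0.18 ± 0.12 on day 14 (adjusted p = 0.519). For both genes and for PSMB10 the day 12 pregnant group had the highest mean and the day 14 non-pregnant group the lowest.

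Both subunits of the peptide pump had their larger differences on day 14, and neither passed. TAP2 was at 9.17, 9.27 and 9.17 in day 14 pregnant ewes and at 8.93, 8.67 and 8.60 in day 14 non-pregnant ewes. These groups stood clearly apart, and the difference was 0.42 ± 0.10, a 1.33-fold higher signal (adjusted p = 0.0726). On day 12 TAP2 was at 8.96, 9.09 and 8.92 against 8.92, 9.12 and 8.89, with full overlap (0.064 ± 0.10, adjusted p = 0.929). The test for a change of the difference between the days did not pass (0.35 ± 0.15, adjusted p = 0.488). TAP2 passed on day 14 without the batch term (0.47, adjusted p = 0.0428) and with batch as a random block (0.47, adjusted p = 0.0429), and in no leave-out of 1 array (adjusted p 0.0745 to 0.297).

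TAP1, the partner of TAP2, was at 7.52, 7.55 and 7.36 in day 14 pregnant ewes against 7.10, 7.17 and 7.07 in non-pregnant ones, again without overlap (0.32 ± 0.095, adjusted p = 0.128). On day 12 it was at 7.38, 7.35 and 7.17 against 7.22, 7.36 and 7.14 (0.10 ± 0.095, adjusted p = 0.843). TAPBP was higher by 0.23 ± 0.12 on day 12 (adjusted p = 0.706) and by 0.27 ± 0.12 on day 14 (adjusted p = 0.33) and did not overlap on either day, but with a day 14 value of 0.042 within batch B against 0.52 within batch A. Without day 14 pregnant replicate 3, which held the highest TAPBP value of 9.33, the day 14 difference was 0.090.

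B2M, the light chain, had day 12 differences below 0 in its 2 brighter probe sets, where the other genes of the set had them above 0. Its brightest probe set was lower in pregnant than in non-pregnant ewes on day 12, at 10.90, 11.06 and 11.14 against 11.27, 11.36 and 11.19, and the groups did not overlap. On day 14 the values were 11.32, 11.48 and 11.44 in pregnant and 11.30, 11.36 and 11.29 in non-pregnant ewes, which overlapped. The differences were -0.26 ± 0.095 on day 12 (adjusted p = 0.579) and 0.12 ± 0.095 on day 14 (adjusted p = 0.607), and their change was 0.38 ± 0.14 (adjusted p = 0.401). The next brightest B2M probe set gave -0.26 ± 0.11 on day 12 and 0.067 ± 0.11 on day 14. The third, dimmer one disagreed with both on day 12, at 0.060 ± 0.092, and gave 0.16 ± 0.092 on day 14. In pregnant ewes B2M was higher on day 14 than on day 12 by 0.37 ± 0.091 in the brightest probe set and 0.31 ± 0.11 in the next, both without overlap. No B2M probe set passed there (adjusted p = 0.992), and in that comparison 0 of 24016 probe sets passed in limma, with 1063 at an unadjusted p under 0.05.

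**Figure D3:**
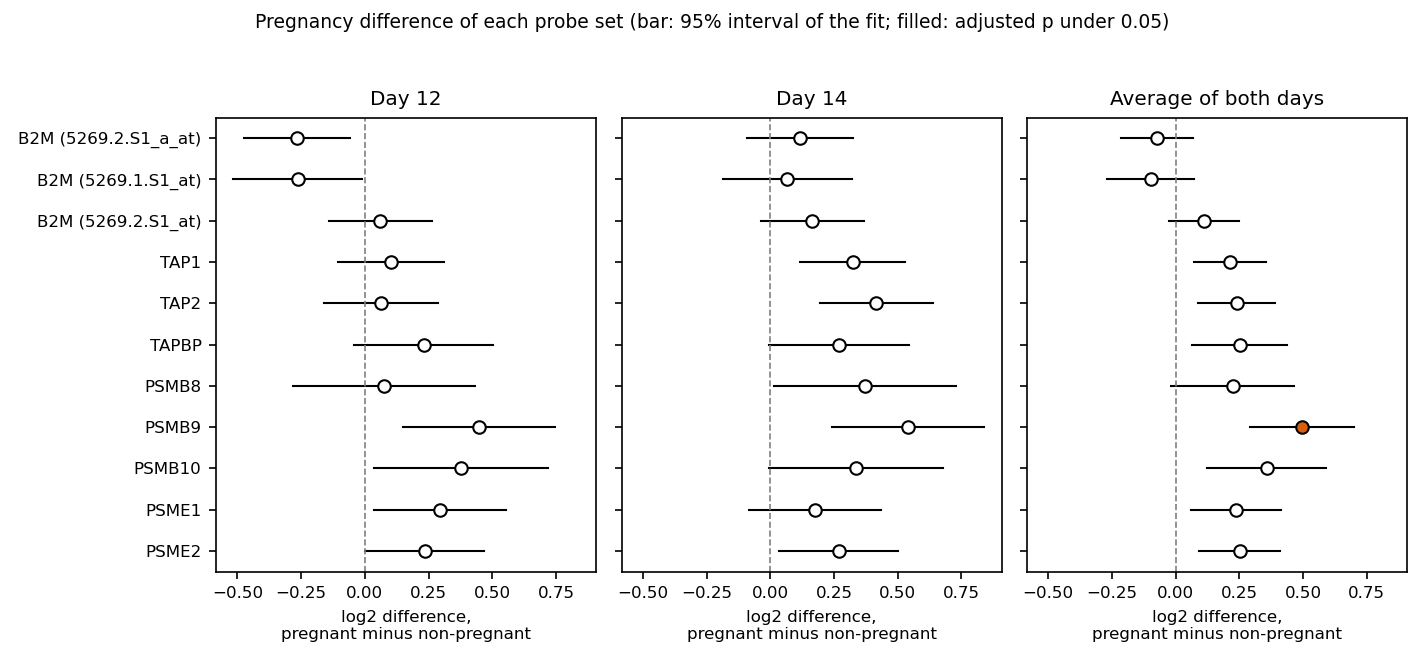
The log2 difference, pregnant minus non-pregnant (horizontal axis), of each of the 11 probe sets is plotted with its 95% interval from the limma fit for day 12, day 14 and their average, and filled where the adjusted p is under 0.05. PSMB9 on the average of the days is the filled point, and the 2 brightest B2M probe sets lie below 0 on day 12 while the other 9 lie above it.

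Counted over the set, 0 of 11 probe sets passed on day 14, where 1.45% of all probe sets did. At an unadjusted p under 0.05, 5 of 11 were higher and 0 lower, against 8.64% and 6.8% of all probe sets. All 11 lay above 0, as did 56.6% of all probe sets, with a median of 0.27 against 0.029 over all. The groups did not overlap for 8 of 11, all 8 higher in pregnant ewes, where 11.1% of all probe sets were higher and 7.15% lower without overlap. The 3 that overlapped were the 2 brighter B2M probe sets and PSME1. The 11 probe sets are not independent readings of the same glands. B2M has 3 of them, and most member genes moved together over the arrays (median r of 0.724 over 36 pairs). The shares of all probe sets also include dim ones. Without both batch A glands of the day 14 non-pregnant group all 11 still lay above 0, with a median of 0.16, and with the 3′ minus 5′ value as a covariate the median was 0.30.

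On day 12, 0 of 11 passed, and so did 0% of all 24016 in limma, with 1847 at an unadjusted p under 0.05. At such a p 4 of 11 were higher (PSMB9, PSMB10, PSME1 and PSME2) and 2 lower (the brighter B2M probe sets), against 3.46% and 4.23% of all. There 9 of 11 lay above 0 (53.1% of all), with a median of 0.10 against 0.011. The groups did not overlap for TAPBP, which was higher, and for the 2 brighter B2M probe sets, which were lower, where 8.56% and 7.87% of all did so. On the average of the days 1 of 11 passed, where 0.866% of all probe sets did. There 7 of 11 were higher at an unadjusted p under 0.05 and 0 lower, against 8.04% and 6.88% of all, and 9 lay above 0 (56.8% of all). The test for a change of the pregnancy difference between the days was passed by 0 of 11 and by 0.0874% of all (21 probe sets), with 2 of 11 against 9.42% at an unadjusted p under 0.05 (TAP2 and the brightest B2M probe set) and 9 above 0 (52.9% of all).

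Most day 14 differences of the set were larger in batch A than in batch B. Within batch A, with 1 pregnant and 2 non-pregnant glands, the median over the 11 probe sets was 0.47, and 10 lay above 0. Within batch B, with 2 pregnant glands and 1 non-pregnant, the median was 0.14, and 10 again lay above 0. PSMB9 was at 0.80 and 0.28, PSMB8 at 0.61 and 0.24 and TAP2 at 0.53 and 0.29 in batches A and B, whereas TAP1 was at 0.24 and 0.43. PSMB10 (0.67 and 0.064), TAPBP and PSME2 (0.47 and 0.090) had little difference within batch B, and PSME1 had 0.41 and -0.023. Batch A holds the day 14 non-pregnant glands with the highest scores on the first principal component (33.7 and 40.4), and the part of either in these values was not tested. Without day 14 pregnant replicate 3 the day 14 median over the set was 0.14, and 10 of 11 lay above 0.

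**Figure D4:**
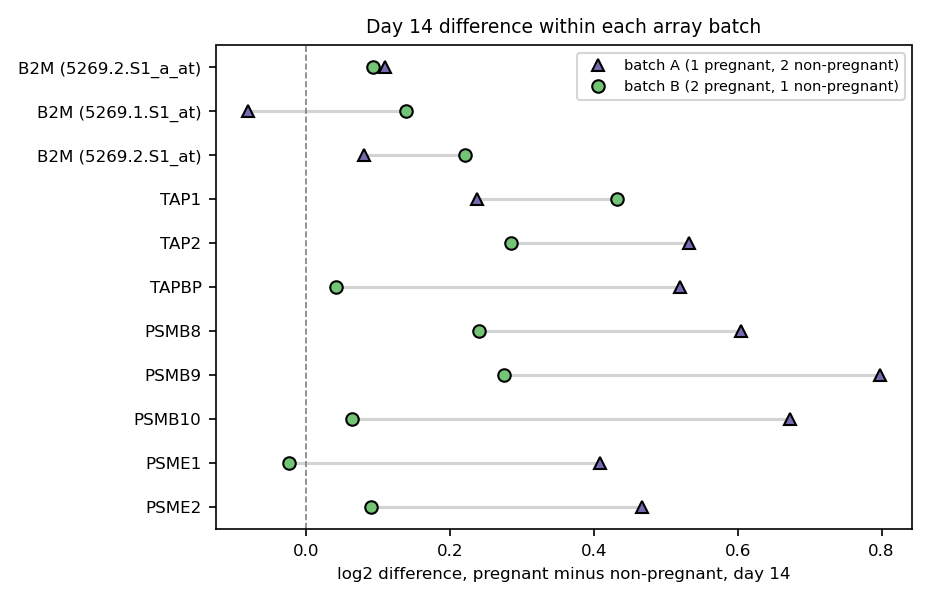
The day 14 log2 difference, pregnant minus non-pregnant (horizontal axis), of each probe set is plotted within batch A (triangles, 3 arrays) and within batch B (circles, 3 arrays). Most triangles lie to the right of their circles, with TAP1 and 2 of the B2M probe sets the other way round.

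Between the days, the set showed no change that passed. In non-pregnant ewes the differences of day 14 minus day 12 lay between -0.14 (TAP2) and 0.035 (PSME1), with a median of -0.018 against -0.026 over all probe sets, and 0 of 11 had an unadjusted p under 0.05, where 0.391% of all passed and 11.7% had such a p. Of the 11, 3 lay above 0 (44.1% of all) and 0 were without overlap, where 7.67% of all were higher and 12.1% lower without overlap. These values include the batch term. The plain group means were 9.52 ± 0.178 on day 12 and 9.28 ± 0.384 on day 14 for PSMB9, and 8.98 ± 0.124 and 8.73 ± 0.174 for TAP2 (SD, n = 3), and within batch B alone the day 14 gland differed from the day 12 mean by 0.18 for PSMB9 and -0.044 for TAP2. In pregnant ewes the differences lay between -0.16 (PSMB10) and 0.37 (B2M), with 8 above 0 (48.4% of all). Of the 11, 3 were higher without overlap (TAP2 and the 2 brighter B2M probe sets) and 0 lower, against 4.58% and 5.32% of all. At an unadjusted p under 0.05 the 2 brighter B2M probe sets were higher, against 4.43% of all.

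Lists of other genes around class I presentation and the proteasome held 83 measured genes. Of these, 1 passed as higher (UBE2L6) and 1 as lower (HSPA5), both on day 14. Beside this count and those that follow, 1.45% of all probe sets passed on that day and 56.6% lay above 0. The median over all named genes was 0.026. Of the constitutive core subunits 13 of 14 listed were measured, 0 passed and 7 lay above 0, with a median of 0.0026. On day 12, 11 of these 13 lay above 0 (53.1% of all probe sets), with a median of 0.096. On the average of the days 12 did (56.8% of all), with a median of 0.067, and 0 of the 13 passed in either. PSMB3 was at 0.36 ± 0.099 on day 12 (adjusted p = 0.439) and -0.16 ± 0.099 on day 14 (adjusted p = 0.4625). Of the regulatory particle, which feeds proteins into the core, 18 of 22 were measured. On day 14, 0 of its genes passed and 5 lay above 0, with a median of -0.10. PSMD11 (-0.27), UCHL5 (-0.34) and the other genes of it did not pass. Of the peptide trimming enzymes 10 of 16 were measured, 0 passed and 8 lay above 0, with a median of 0.092. ERAP2, which trims peptides in the endoplasmic reticulum, lay above 0 (0.29 ± 0.091, adjusted p = 0.151), at the 26 percentile by mean level. HM13, a signal peptide peptidase, lay below 0 (-0.45 ± 0.12, adjusted p = 0.0835). Of the heavy chains and relatives 7 of 18 were measured by a probe set with 1 symbol, 0 passed and 4 lay above 0, with a median of 0.029. BOLA-N was at 1.07 ± 0.54 (adjusted p = 0.372) and MIC1 at 0.44 ± 0.22 (adjusted p = 0.377). Heavy chain genes are near-identical copies and differ between animals, so their probe sets can share signal.

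In the loading complex list 8 of 9 genes were measured and 4 lay above 0, with a median of -0.027. HSPA5 (BiP), a chaperone that binds newly made heavy chains, was lower in pregnant ewes on day 14 (-0.59 ± 0.12, adjusted p = 0.0389), and the others did not pass. At an unadjusted p under 0.05, 2 of the 8 were higher and 2 lower. The higher were TAPBPL, a relative of tapasin (0.37 ± 0.11, adjusted p = 0.147), and GANAB, a glucosidase of the endoplasmic reticulum (0.32 ± 0.11, adjusted p = 0.204). The lower were HSPA5 and SAR1A (-0.37 ± 0.12, adjusted p = 0.171). The list of proteasome assembly factors and activators also held UBE2L6, which is neither, but the enzyme that conjugates the ubiquitin-like ISG15. Of its 9 genes 7 were measured and 3 lay above 0, with a median of -0.042. UBE2L6 was higher on day 14 (0.81 ± 0.17, adjusted p = 0.045), and the other 6 measured, all assembly factors, activators or inhibitors of the proteasome, did not pass. Its difference was 1.17 in batch A alone and 0.39 in batch B alone. HSPA5 and UBE2L6 each passed in 2 of 12 leave-outs of 1 array, with differences of -0.66 to -0.52 and of 0.60 to 1.12. Without day 14 pregnant replicate 3 their adjusted p was 0.178 and 0.263, and with the 3′ minus 5′ covariate it was 0.46 and 0.308.

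Among transcription factors of class I genes 13 of 17 were measured, 0 passed on day 14 and 5 lay above 0, with a median of -0.13. At an unadjusted p under 0.05, 3 were higher (IRF9, STAT2 and RFX5) and 2 lower (IRF2 and NFYB). IRF9, part of the complex through which type I interferons act, was at 0.58 ± 0.13 (adjusted p = 0.0607). STAT2, another part of it, was at 0.32 ± 0.11 (adjusted p = 0.181), and RFX5, which binds the promoters of class I and class II genes, at 0.35 ± 0.14 (adjusted p = 0.256). IRF2, which can repress interferon-induced genes, was at -0.51 ± 0.19 (adjusted p = 0.229) on day 14 and -0.40 ± 0.19 (adjusted p = 0.67) on day 12. NFYB was at -0.22 ± 0.090 (adjusted p = 0.27) on day 14 and -0.38 ± 0.090 (adjusted p = 0.349) on day 12. IRF1 was not matched to a probe set with 1 symbol. Of the interferon receptors and kinases 7 of 11 were measured, 0 passed and 4 lay above 0, with a median of 0.018. At an unadjusted p under 0.05, 0 of these 7 were higher and 1 lower, the kinase JAK1 (-0.30 ± 0.098, adjusted p = 0.161). On day 12, 0 of the 83 measured genes of these 8 lists passed in limma, where 0 of 24016 probe sets did, and 2 were higher and 2 lower at an unadjusted p under 0.05, where 3.46% and 4.23% of all probe sets were.

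Cells other than luteal cells also carry these genes, so markers were read beside them. The mean level of 14 measured of 15 T and NK cell markers was 5.14 to 5.32 in day 14 pregnant and 5.06 to 5.23 in day 14 non-pregnant ewes, and 5.01 to 5.13 and 5.06 to 5.197 on day 12, with 1 of the 14 among the dimmest 25% of probe sets. On day 14, 0 of the 14 passed and 12 lay above 0, with a median of 0.14. PTPRC, carried by all leukocytes, was at 5.03 to 5.81 in day 14 pregnant and 5.41 to 5.70 in non-pregnant ewes. On day 12 PTPRC ranged from 5.09 to 5.18 with pregnancy and from 5.25 to 5.45 without it. The groups did not overlap, where 7.87% of all probe sets were lower without overlap, and PTPRC did not pass (-0.24 ± 0.17, adjusted p = 0.784). The brighter B2M probe sets also lay lower in those pregnant ewes, and a link between them was not tested. Of 9 measured of 10 macrophage markers 0 passed on day 14, and their mean was 6.196 to 6.72 in pregnant and 6.16 to 7.10 in non-pregnant ewes. That mean holds moves in both directions, with 4 of the 9 above 0 on day 14 and a median of -0.022. At an unadjusted p under 0.05, 1 was higher and 3 lower, against 8.64% and 6.8% of all probe sets. Of 7 endothelial markers 2 passed on day 14 (1.45% of all probe sets) and the same 2 on the average of the days (0.866% of all), with the list at 7.08 to 7.19 against 6.70 to 7.07 on day 14. These were CD34 (1.09 ± 0.16 on day 14, adjusted p = 0.00828) and TIE1 (0.48 ± 0.088, adjusted p = 0.0266), both higher in pregnant ewes. Over the list 4 of 7 lay above 0 on day 14, with a median of 0.075, and PECAM1 (-0.40 ± 0.22), VWF (-0.097 ± 0.13) and CDH5 (-0.076 ± 0.13) lay below it. The 5 luteal markers were bright in all glands and were lowest in the day 14 non-pregnant group (10.4 to 11.2, against 11.3 to 11.5 elsewhere). All 5 lay above 0 on day 14, and STAR passed (0.74 ± 0.13, adjusted p = 0.0245). In leave-outs of 1 array the day 14 calls of STAR, TIE1 and CD34 held in 8, 7 and 11 of 12, and without day 14 pregnant replicate 3 none of them held (adjusted p = 0.146, 0.093 and 0.0799). With the 3′ minus 5′ covariate their adjusted p was 0.138, 0.297 and 0.115 on day 14, and on the average of the days that of TIE1 was 0.541 and that of CD34 0.492. Of 3 measured of 5 B cell markers 2 were among those dimmest probe sets and 0 passed. The part of these cells in the differences of PSMB9 and the other members was not tested.

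Some members of the set are neighbours in the genome. In RefSeq's gene table for sheep (assembly ARS-UI_Ramb_v3.0) TAP2, PSMB8, TAP1 and PSMB9 follow each other with no other protein-coding gene between them, in the MHC region, while TAPBP lies elsewhere on the same chromosome. PSME2 and PSME1 are parted by EMC9 alone, and IRF9 is near PSME2. PSMB10 lies on another chromosome than PSMB8 and PSMB9. As a description with no test, values of PSMB10 and PSME2 correlated at Pearson's r of 0.949 over the 12 arrays, those of TAP2 and PSMB9 at 0.886, those of PSMB8 and PSMB9 at 0.745, and those of PSMB10 and the brightest B2M probe set at -0.38. Over the 36 pairs of member genes, each by its brightest probe set, the median r was 0.724, and 32 lay above 0. The highest r, that of PSMB10 and PSME2, was between genes of different chromosomes, and that of PSMB8 and PSMB9 was near the median. The arrays share groups and batches, which all of these values include.

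The mean standardised course of the 9 measured genes was compared with 9146 other named genes. The most alike were RABEP2 (r = 0.934 over 12 arrays), TCTA (0.928), GALK1 (0.907), SHISA5 (0.879) and P4HTM (0.87), and within the 8 arrays of batch B the values were 0.825, 0.829, 0.836, 0.803 and 0.875. These genes were picked as the highest of many and are given as a description.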

How the data were processed

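The deposited values are log2 expression values, which the authors made by RMA. The submitters' processing notes name Affymetrix Expression Console, with no version in the sources used here. RMA normalizes arrays to one distribution and flags no probe set as undetected, so low values cannot be read as presence or absence. After 112 control probe sets were left out, 24016 were tested. Groups came from the source label and batch from the description label. Replicate numbers follow accession order and pair no samples. The number of arrays limits the precision, and p-values measure the spread between ewes.

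The model had a mean per group and an additive batch term over all 12 arrays (limma 3.58.1, R 4.3.3, 7 residual and 4.391 prior degrees of freedom, two-sided, threshold 0.05). On simulated data for the day 14 comparison with 24016 probe sets, 26, 80, 96 and 100% of log2 changes of 0.5, 1, 2 and 3 were recovered. The changes were put into a small part of these probe sets, over normal noise and a small random batch shift. The shares are rough and hold for that setting, which can differ from the real data. Lists took each gene's brightest probe set with 1 symbol. Named were all members, PSMB5, PSMB6, PSMB7, IRF2, list genes that passed, up to 3 more per list, and the 5 genes most alike in course. GANAB, NFYB, PTPRC, PECAM1, VWF and CDH5 fell outside this rule and were named after their values were seen. The members and lists were chosen with earlier results of these data known. No sequence of the members was used here. Alternatives were no batch term, a random batch block, a filter on dim probe sets, median centring, trended and robust moderation, leave-outs, only the arrays compared, gene means and, added after seeing the data, the 3′ minus 5′ covariate.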

Additional observations from a re-analysis of the deposited data

How the results depend on the processing

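No paired analysis was made, because each ewe gave 1 gland and the labels pair no ewes. Without the batch term, and with batch as a random block, 1 member (TAP2) passed on day 14 in place of 0. On the average of the days 0 members passed in place of 1 (PSMB9) under both of these settings, without both batch A glands of the day 14 non-pregnant group, and with the 3′ minus 5′ covariate. Leaving out 1 array gave 0 to 1. Over all probe sets the day 14 count of 348 became 531, 521, 174, 9 (covariate) and 24 (only the arrays compared), with 88 to 510 in leave-outs. The average count of 208 became 55 without those batch A glands and 0 with the covariate, with 18 to 348 in leave-outs. The count between days in non-pregnant ewes, 94 (70 higher, 24 lower), became 415 (231 and 184) without the batch term, 462 (250 and 212) with the random block, 159 (135 and 24) without those batch A glands, 34 (27 and 7) with the covariate and 1 with only the arrays compared, with 28 to 254 in leave-outs. The count for a change of the pregnancy difference, 21 (6 and 15), became 50 (24 and 26) under the first 2 settings, 59 (13 and 46) without those batch A glands and 10 (3 and 7) with the covariate, with 1 to 76 in leave-outs. The day 12 count of 0 became 1 with only the arrays compared and 0 to 5 in leave-outs. The causes of these moves were not tested, though fewer arrays enter several of them. The covariate fit kept all 12 arrays. Its covariate did not overlap between pregnant and non-pregnant ewes of the same day, so that fit can hardly tell RNA quality and pregnancy apart.

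Some small values that did not pass changed sign. PSME1 between days in non-pregnant ewes was -0.041 without the batch term, -0.047 with the random block and -0.0095 with the covariate, and -0.10 to 0.12 in leave-outs. Its day 14 pregnancy difference was -0.0023 to 0.29 in leave-outs, and that of PSMB8 on day 12 was -0.024 to 0.18. The change of the PSMB9 difference between days was -0.089 without both batch A glands, and -0.12 to 0.32 in leave-outs. Over all members, sign changes were most frequent between days in non-pregnant ewes (29 in leave-outs, 21 in other settings). The pregnancy difference averaged over the days had 0. The 3 subunit pairs kept their sign and their side of the threshold in the settings run for them, leave-outs and gene means. The pairs were not tested with a batch term, without both batch A glands or with the covariate, so their hold under those settings is not known. The precision is limited by 3 ewes per group.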
